A study of Mus musculus with 2 samples.

Results

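A set of 9 genes of the phosphoinositide 3-kinase (PI3K) pathway and of the phosphatases that oppose it was examined by name, out of the 55536 annotated mouse genes in the tables, of which 22028 are protein coding. Pik3cd and Pik3cg encode catalytic subunits, Pik3r1 and Pik3r5 regulatory subunits, Pik3ap1 an adaptor, Akt1 the kinase that reads the lipid product, Inpp5d the lipid phosphatase SHIP1, and Ptpn6 and Ptpn1 the tyrosine phosphatases SHP-1 and PTP1B. The genes were given by symbol and matched to the gene identifiers through the deposited transcript names, a match that used no measured value. The choice of the genes was made with earlier results of these data known. RNA came from bone marrow-derived macrophages of C57BL/6J mice, phagocytes grown in culture from marrow. Lipid A, the part of bacterial lipopolysaccharide that activates TLR4, was given at 100 ng/ml for 12 h, removed for a 12 h rest and given again at 100 ng/ml, and cells were taken 120 min later, a scheme used to study tolerance to repeated endotoxin. Some label fields give the agent as lipoprotein A. The 2 polyA RNA-seq libraries, replicates 1 and 2, make up 1 group with 1 donor identifier, and separate animals are not stated, so the SDs given here measure a spread that may be technical. Age and sex were not collected, and no unstimulated or singly stimulated cells were analysed here, so all values are levels in this state and not responses to it.

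Class I PI3Ks phosphorylate the membrane lipid PIP2 to PIP3 below activated receptors, and PIP3 recruits AKT and other kinases to the membrane. SHIP1 removes the phosphate at the 5 position of PIP3, while SHP-1 is drawn by its SH2 domains to phosphorylated inhibitory receptors and strips phosphotyrosine from nearby signalling proteins. In macrophages this network is known to temper signalling from the lipopolysaccharide receptor TLR4, and SHIP1 was among the first proteins linked to endotoxin tolerance in mice.

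All 9 genes were expressed, from 17.3 ± 2.43 TPM for Pik3cg to 714 ± 65.3 TPM for Pik3ap1 (mean ± SD, n = 2 libraries). TPM is a transcript abundance corrected for transcript length and scaled to the same total in each library, and every level below is in TPM. Each of the 9 reached 10 TPM in both libraries, as did 27.2% of protein-coding genes, and 6 of the 9 reached 100 TPM in both, as did 5.2% of protein-coding genes. By mean level the order was Pik3ap1, Ptpn6, Ptpn1, Pik3r5, Inpp5d, Akt1, Pik3r1, Pik3cd and Pik3cg. The library values of Ptpn6 and Ptpn1, of Ptpn1 and Pik3r5, and of Pik3r1 and Pik3cd overlapped, so these 3 of the 8 neighbouring pairs could not be ordered beyond the spread. Those of Inpp5d and Akt1 did not overlap, but the order of this pair depended on the measure. It reversed in a second quantification, made from the reads without an alignment, at 100.1 TPM for Inpp5d and 100.5 TPM for Akt1. It also reversed in complete coding transcripts, at 80.4 and 98.9 TPM. The median of log2(TPM + 1) was 7.03 over the 9 genes and 0.38 over all protein-coding genes, including those below 10 TPM. Over the protein-coding genes at 10 TPM or more in both libraries, the median of the mean level was 39.4 TPM.

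**Figure D1:**
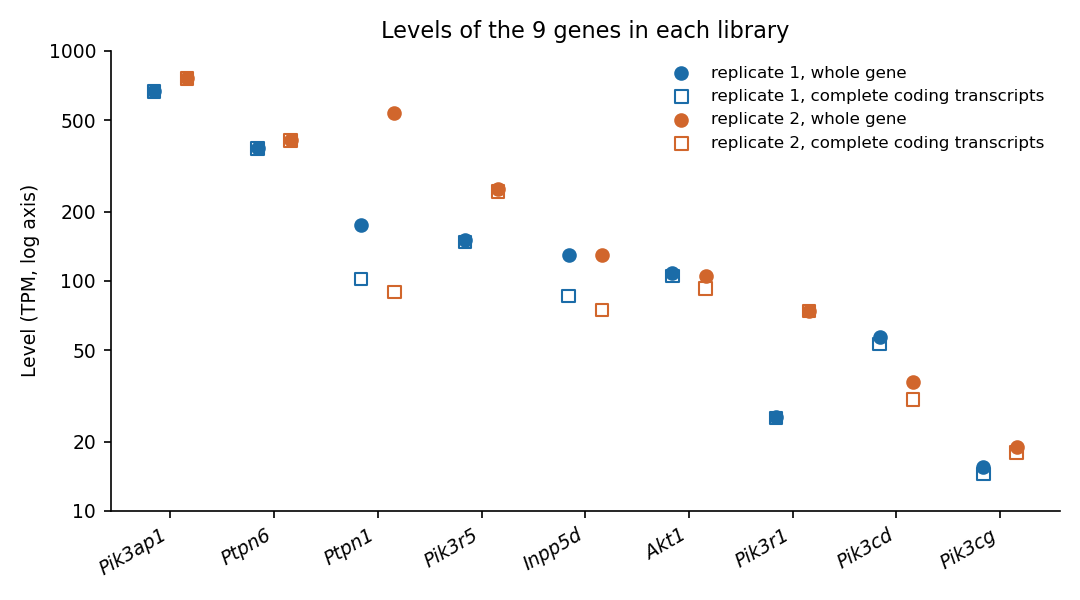
Levels of the 9 genes (TPM, log axis) in replicate 1 (blue) and replicate 2 (orange), ordered by mean. Filled circles are the deposited level of the whole gene and open squares the part carried by complete coding transcripts. The 2 measures nearly coincide except for Ptpn1 and Inpp5d, and Ptpn1 reaches 538 TPM in replicate 2 as a whole gene with 89.7 TPM in complete coding transcripts.

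Replicate 1 was the deeper library, with 45377715 expected counts against 32112416 for replicate 2, and 3 reads in a library correspond to 0.0661 and 0.0934 CPM. All 10 macrophage markers reached 10 TPM in both libraries, with a summed level of 16607 and 18292 TPM. Of 10 neutrophil markers none reached 10 TPM in both, their sum was 69.3 TPM in replicate 1 and 12.1 TPM in replicate 2, and Ly6g and Retnlg had no read. Every marker of T, B, NK, mast, erythroid and stromal cells was below 1 TPM in both libraries, as were 4 of 5 dendritic cell markers. The megakaryocyte and platelet markers summed to 274 and 95.9 TPM, of which Pf4, also made by macrophages, held 271 and 95.2 TPM. The neutrophil sum, the platelet sum and the depth were each higher in replicate 1, and their part in the differences between libraries given below was not tested. In bulk RNA, fewer cells of a type and less RNA per cell cannot be told apart.

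Among the catalytic subunits, Pik3cd encodes p110δ, the form typical of leukocytes that works below tyrosine kinase-coupled receptors. It lies on the minus strand at chr4:149649168-149702571 (GRCm38, also called mm10, as are all coordinates here) and was at 57.2 TPM in replicate 1 and 36.2 TPM in replicate 2 (46.7 ± 14.8). Pik3cg, which encodes p110γ, the form driven by G protein-coupled receptors, lies on the minus strand at chr12:32173473-32208659 and was at 15.6 and 19.0 TPM. Pik3cd was above Pik3cg in both libraries. The other class I catalytic genes, which are expressed in most tissues, were of the order of Pik3cg, with Pik3ca at 16.8 and 24.5 TPM and Pik3cb at 14.1 and 15.0 TPM. Pik3cd therefore held the highest share of the summed class I catalytic level, 55.2% in replicate 1 and 38.2% in replicate 2, against 15.0% and 20.1% for Pik3cg.

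The transcripts of Pik3cd differed little in what they encode. Pik3cd-206, a form of 1040 residues, held 47.3% of the gene's TPM in replicate 1 and 43.0% in replicate 2, and Pik3cd-201, of 1045 residues, held 21.8% and 23.1%. Pik3cd-204 and Pik3cd-214 carry the same coding sequence of 1047 residues and differ outside it. The first held 5.11% and 15.6% and the second 14.4% and 0%, and the second quantification, made from the reads without an alignment, put Pik3cd-204 at 17.5% and 17.4% and Pik3cd-214 at nearly 0 in both. The split between these 2 transcripts thus depended on the method. The complete coding transcripts together held 93.2% and 84.3% in the first quantification, and 84.3% and 76.5% in the second. For Pik3cg, Pik3cg-201 held 79.4% and 85.1% and Pik3cg-202 held 11.8% and 9.24%, both encoding 1102 residues. The second quantification gave 57.2% and 64.2% for Pik3cg-201 and 23.6% and 20.9% for Pik3cg-202.

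Among the regulatory subunits, Pik3r5 encodes p101, the partner of p110γ, and was the highest. It lies on the plus strand at chr11:68432121-68497849 and was at 151 TPM in replicate 1 and 252 TPM in replicate 2 (201 ± 71.2), of which Pik3r5-201, encoding 871 residues, held 97.8% and 97.4%. Pik3r5 held 73.8% and 72.2% of the summed regulatory level, a share that differed by less between the libraries than its level did. Pik3r6, which encodes p87, the other partner of p110γ, was at 14.0 and 11.1 TPM. Thus Pik3r5 stood above both Pik3cg and Pik3r6 in each library, on the same per-length scale.

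**Figure D2:**
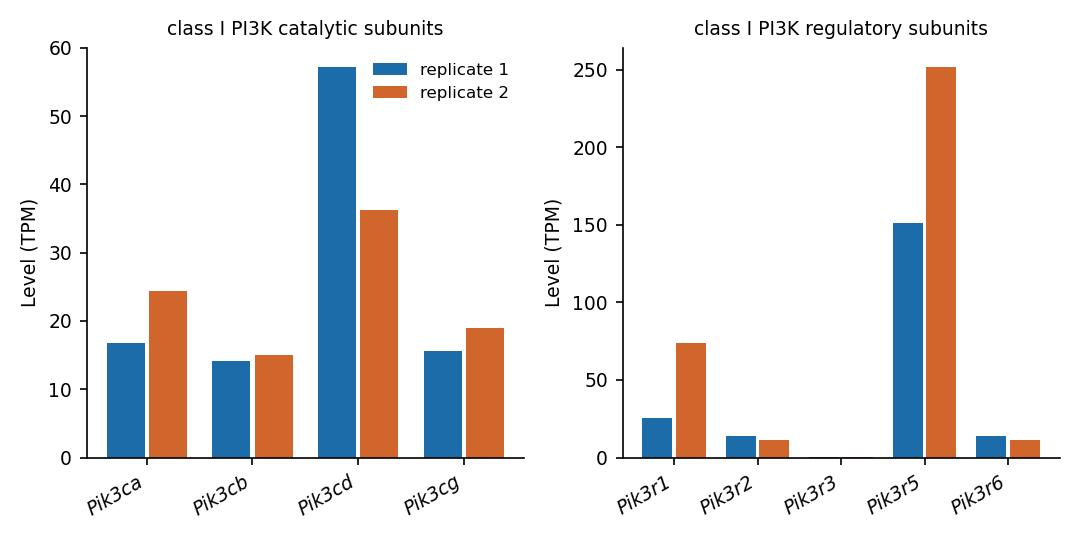
Levels (TPM) of the class I PI3K catalytic genes (left) and regulatory genes (right) in replicate 1 (blue) and replicate 2 (orange), with 1 bar for each library. Pik3cd is the highest catalytic gene in both libraries and Pik3r5 the highest regulatory gene, while Pik3r3 is at or below 0.46 TPM.

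Pik3r1, on the minus strand at chr13:101680563-101768217, encodes p85α, which holds and stabilises p110α, p110β and p110δ, and from an internal start also the shorter p55α. It was the member that differed most between the libraries by expected counts. Both forms end in the same 1265 coding bases, which encode the SH2 domains and the stretch that grips the catalytic subunit, and they differ in how they begin. The first 120 coding bases of each are shown because they tell the forms apart, with capitals for the bases before the shared stretch:
p85α, Pik3r1-202: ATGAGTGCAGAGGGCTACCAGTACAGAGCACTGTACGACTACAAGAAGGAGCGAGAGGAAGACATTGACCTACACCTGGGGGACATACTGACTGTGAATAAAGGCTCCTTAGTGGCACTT
p55α, Pik3r1-201: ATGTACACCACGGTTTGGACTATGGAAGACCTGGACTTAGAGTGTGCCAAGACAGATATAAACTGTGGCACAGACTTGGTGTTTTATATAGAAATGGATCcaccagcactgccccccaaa
The p85α form has 910 coding bases of its own and 724 residues in all, and the p55α form has 100 coding bases of its own and 454 residues.

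Pik3r1 was at 25.6 TPM in replicate 1 and 74.1 TPM in replicate 2 (49.9 ± 34.3), from 5439 and 9561 reads. The level of p85α was 25.3 TPM in replicate 1 and 60.7 TPM in replicate 2. The p55α form had 0 reads in replicate 1 and 754 reads in replicate 2, 0% and 18.1% of the gene's TPM. In the second quantification the p55α share was 11.6% in replicate 1 and 44.8% in replicate 2, with 2.64 and 38.0 TPM for p55α and 19.4 and 46.6 TPM for p85α. Both forms were higher in replicate 2 by both methods, and which of them held more of the difference depended on the method. The form thus had the higher share in replicate 2 by both methods, but its absence from replicate 1 held in 1 of them only. Pik3r2, which encodes p85β, was at 14.0 and 11.0 TPM, and Pik3r3, which encodes p55γ, at 0.10 and 0.46 TPM.

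Pik3ap1 encodes BCAP, an adaptor that offers phosphotyrosines to the SH2 domains of p85 and that is known to restrain TLR responses in mouse macrophages. It lies on the minus strand at chr19:41272377-41385102 and was at 668 TPM in replicate 1 and 760 TPM in replicate 2 (714 ± 65.3), from 87885 and 67836 reads. This placed it at rank 161 among protein-coding genes by mean level and above the other 8 members in both libraries. Its transcripts hardly varied, since Pik3ap1-201, encoding 811 residues, held 99.7% and 99.9%. Of the 8 genes on the list of PI3K adaptors 2 reached 10 TPM in both libraries, a share close to the 27.2% of all protein-coding genes. The one besides Pik3ap1 was Gab2, an adaptor of receptor tyrosine kinases and Fc receptors, at 38.5 ± 10.3 TPM. Hcst, which encodes the adaptor DAP10, was at 28.3 and 7.97 TPM.

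Akt1, on the minus strand at chr12:112653821-112674884, was at 108 TPM in replicate 1 and 105 TPM in replicate 2 (107 ± 1.95), above Akt2, a related kinase, at 49.1 ± 5.25 TPM. Akt1-201, encoding the 480 residues of the full kinase, held 96.7% of the gene's TPM in replicate 1 and 79.8% in replicate 2, and 92.1% and 65.5% in the second quantification. The level of complete coding Akt1 transcripts was 105 and 92.8 TPM. Of the 9 genes listed as AKT kinases and their activators 4 reached 10 TPM in both libraries, against 27.2% of protein-coding genes. Among them was Mapkap1, a subunit of the AKT-activating complex mTORC2, at 30.7 ± 9.96 TPM. Complete coding transcripts of Mapkap1 held 15.9 TPM in replicate 1 and 20.7 TPM in replicate 2. Pdpk1, the kinase that activates AKT at its activation loop, was near the limit of 10 TPM at 9.89 and 10.2 TPM.

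Inpp5d, on the plus strand at chr1:87620312-87720507, encodes SHIP1, which binds inhibitory receptors and adaptors through an SH2 domain at its start. The gene was at 130 TPM in both libraries (130 ± 0.24), from 11671 reads in replicate 1 and 6659 in replicate 2. Complete coding transcripts held 86.0 TPM in replicate 1 and 74.9 TPM in replicate 2 (80.4 ± 7.89), 66.2% and 57.8% of the gene. Most of the rest was assigned to 1 short noncoding model, Inpp5d-203, described further below. The equal gene levels therefore joined a somewhat higher coding level in replicate 1 with a higher noncoding level in replicate 2.

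The coding transcripts of Inpp5d fell into those that start at the first exon and those that start 55927 bases downstream. The coding sequence of the internal forms begins in frame at residue 264 of the full protein and runs to the same stop codon, so it lacks the first 263 residues, where the SH2 domain lies. A SHIP1 form without this domain, called s-SHIP, is known in mice from stem cells. The first 60 coding bases of a full form and of an internal form are shown because these starts tell the 2 proteins apart, with the start codon in capitals:
full form, Inpp5d-210: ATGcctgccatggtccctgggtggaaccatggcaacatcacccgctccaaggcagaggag
internal form, Inpp5d-208: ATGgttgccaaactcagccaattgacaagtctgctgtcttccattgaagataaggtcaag
Inpp5d-210 encodes 1191 residues, Inpp5d-208 encodes 928 and the other internal form, Inpp5d-211, encodes 867.

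The internal forms held 27.9% of the gene's TPM in replicate 1 and 35.3% in replicate 2, and the complete forms from the first exon held 38.4% and 22.5%. In TPM, the internal forms were at 36.2 in replicate 1 and 45.7 in replicate 2, and the first-exon forms at 49.8 and 29.2. In the second quantification the internal forms held 11.1% and 28.7% and the first-exon forms 59.4% and 41.0%. In both methods the internal share was higher in replicate 2, but in replicate 2 the methods put the 2 kinds in opposite order. That order in the second quantification rested on Inpp5d-209, a first-exon form of 1130 residues. It held 0% in both libraries in the first quantification and 9.41% and 23.5% in the second. Inpp5d-211 held 17.9% and 19.7% in the first and 5.62% and nearly 0% in the second. Inpp5d-208 held 9.94% and 15.5% in the first and 5.49% and 28.7% in the second. All bases of the internal coding sequence also lie in the full form, so reads within it alone do not tell where a transcript began. The bases before the internal start codon were not compared with the full form, and coverage along the gene was not analysed here.

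Inpp5d is a known target of the microRNA miR-155, which is induced by TLR4 in macrophages and lowers SHIP1. The mature microRNA and its match in the Inpp5d-210 transcript are shown because this is the site type through which the microRNA acts, with the seed (bases 2 to 8) and its match in capitals:
mmu-miR-155-5p: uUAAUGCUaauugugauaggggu
Inpp5d, chr1:87719823-87719852, plus strand: gagatgtttttaaaaAGCATTAaagaaaac
The microRNA sequence is from RefSeq (GRCm38.p6). The match, AGCATTA read on the transcript's own strand, starts at base 515 of a 3′ UTR of 1184 bases and is followed by A. These letters occur in the longest 3′ UTR of 8.28% of 21037 genes, and among the 9 members in Inpp5d only. The host transcript Mir155hg (chr16:84703167-84715245, plus strand) was at 59.1 TPM in replicate 1 and 59.0 TPM in replicate 2, and the mature microRNA is not captured by polyA RNA-seq.

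Among the 13 inositol phospholipid phosphatases on the list, 8 reached 10 TPM in both libraries, against 27.2% of protein-coding genes. Of the 13, 1, Inpp4b, was below 1 TPM in both. By gene level Inpp5d stood beside Synj1, a phosphatase of vesicle traffic, which was at 114 TPM in replicate 1 and 173 TPM in replicate 2. In complete coding transcripts Synj1 held 20.6 and 24.7 TPM, below Inpp5d in each library. Inpp5k was at 47.4 ± 5.26 TPM, and Inppl1, which encodes the related SHIP2, at 41.1 ± 3.82 TPM. Complete coding transcripts of Inppl1 held 24.65 TPM in replicate 1 and 15.64 TPM in replicate 2. All 5 SHIP adaptors on the list reached 10 TPM, led by Grb2 at 613 ± 67.9 TPM, with Dok1 at 74.2 and 36.1 TPM and Shc1 at 37.8 ± 2.96 TPM. Complete coding transcripts of Grb2 held 261 TPM in replicate 1 and 297 TPM in replicate 2.

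Ptpn6, on the minus strand at chr6:124720707-124738714, encodes SHP-1, a phosphatase of blood cells with paired SH2 domains. It was at 378 TPM in replicate 1 and 408 TPM in replicate 2 (393 ± 21.4), the second highest of the 9 genes. The gene is known to have separate first exons, of which the downstream one serves blood cells. Both are shown by the first 45 coding bases of their transcripts, with capitals for the bases before the stretch that the 2 share to the stop codon:
downstream first exon, Ptpn6-202: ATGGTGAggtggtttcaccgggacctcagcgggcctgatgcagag
upstream first exon, Ptpn6-201: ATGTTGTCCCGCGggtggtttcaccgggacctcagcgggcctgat
The starts of these transcripts lie 5471 bases apart and the proteins have 595 and 597 residues. Ptpn6-202 held 95.6% of the gene's TPM in replicate 1 and 96.8% in replicate 2, and the 3 complete transcripts from the upstream exon held 4.14% and 2.84% together. In the second quantification the upstream share was 4.42% and 2.41%. Ptpn6 was the only member whose expected counts were not whole to within 0.005 reads, and an annotated antisense gene, Gm20531, which overlaps it, had 5.05 and 2.02 reads. Whether counting used strand is not given in the sources used here, so reads in that overlap are uncertain.

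Of the 13 listed genes for receptors that can recruit SHP-1 or SHIP1, 12 were at 10 TPM or more in both libraries by gene level, against 27.2% of protein-coding genes. Lilrb4a, counted among the 12, held 2.39 TPM in replicate 1 and 247 TPM in replicate 2 in complete coding transcripts. By that measure it was below the limit in replicate 1. Sirpa, the receptor for the surface protein CD47, was at 1706 ± 228 TPM. Pirb, a receptor for MHC class I, was at 682 ± 232 TPM, of which complete coding transcripts held 213 TPM in replicate 1 and 279 TPM in replicate 2. Fcgr2b, the inhibitory IgG receptor that binds SHIP1, was at 465 ± 7.04 TPM. Pecam1 was the 1 receptor below the limit, at 3.69 and 3.29 TPM. Among 16 cytosolic tyrosine phosphatases 10 reached 10 TPM in both and 5 were below 1 TPM in both, and by mean gene level Ptpn18 followed Ptpn6 and Ptpn1, at 162 TPM in replicate 1 and 44.5 TPM in replicate 2. This place rested on replicate 1, since in replicate 2 Ptpn23, at 63.7 TPM, and Ptpn12, at 53.9 TPM, were higher.

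Ptpn1, on the plus strand at chr2:167932057-167979385, encodes PTP1B, a phosphatase held on the endoplasmic reticulum that acts on the insulin receptor and JAK2. Its gene level was 175 TPM in replicate 1 and 538 TPM in replicate 2 (357 ± 256), a 3.07-fold higher level in replicate 2. Its reads did not differ in this way, with 13659 in replicate 1 and 10866 in replicate 2, which after scaling to library size was 1.18-fold higher in replicate 2 (95% interval 1.15 to 1.21, counting error only). The complete coding transcript Ptpn1-201, of 4213 bases and 432 residues, was at 102 TPM in replicate 1 and 89.7 TPM in replicate 2 (95.7 ± 8.50), 1.13-fold higher in replicate 1. Gene level, reads and coding level thus gave 3 different pictures of the same gene.

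The difference lay in short noncoding models. Ptpn1-207, a processed transcript of 466 bases, had 399 reads in replicate 1 and 1462 in replicate 2, which gave it 66.8 and 351 TPM, 38.1% and 65.3% of the gene. Ptpn1-206, of 921 bases, had 10.7 and 1202 reads, 0.30% and 16.3% of the gene. Together with the other noncoding models they held 42.0% of the gene's TPM in replicate 1 and 83.3% in replicate 2. The length that the tables give for the gene, its transcripts' lengths weighted by their shares, was 2765 bases in replicate 1 and 1223 bases in replicate 2. In the second quantification Ptpn1-207 held 46.2% and 59.0%, Ptpn1-201 held 35.9% and 14.6%, and the gene level was 211 and 503 TPM. Ptpn1-206 held 13.9% and 23.7% there, so its near absence from replicate 1 held in 1 method only, while the higher share of Ptpn1-207 and the lower share of Ptpn1-201 in replicate 2 held in both.

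Inpp5d-203, a retained-intron model of 364 bases, had 133 reads in replicate 1 and 117 in replicate 2. These few reads stood for 41.1 and 53.4 TPM, 31.7% and 41.2% of the gene, and 27.0% and 29.2% in the second quantification. Both short models consist mostly of exon sequence that full-length coding transcripts also have, 340 of 364 bases in Inpp5d-203 and 434 of 466 bases in Ptpn1-207. The bases that lie in no exon of a complete coding transcript are shown in capitals after the 20 shared bases before them, because only they set the models apart from coding RNA by sequence:
Inpp5d-203: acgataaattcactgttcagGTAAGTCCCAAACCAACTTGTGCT
Ptpn1-207: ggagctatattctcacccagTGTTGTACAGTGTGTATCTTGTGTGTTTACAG
The capitals of Inpp5d-203 run from an exon's end straight into the intron. Those of Ptpn1-207, 32 bases, lie between 2 exons of the coding transcript and directly precede the second of them, with which the model goes on.

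Retained-intron and processed-transcript models held over 10% of the TPM in both libraries in 2 of the 9 genes, Inpp5d and Ptpn1, and in 16.2% of the protein-coding genes at 10 TPM or more. In the other 7 members their share was between 0.07% and 6.02%. Over all such genes the median share was 1.25% in replicate 1 and 1.05% in replicate 2. With complete coding transcripts alone, the order of the members became Pik3ap1, Ptpn6, Pik3r5, Akt1, Ptpn1, Inpp5d, Pik3r1, Pik3cd and Pik3cg.

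**Figure D3:**
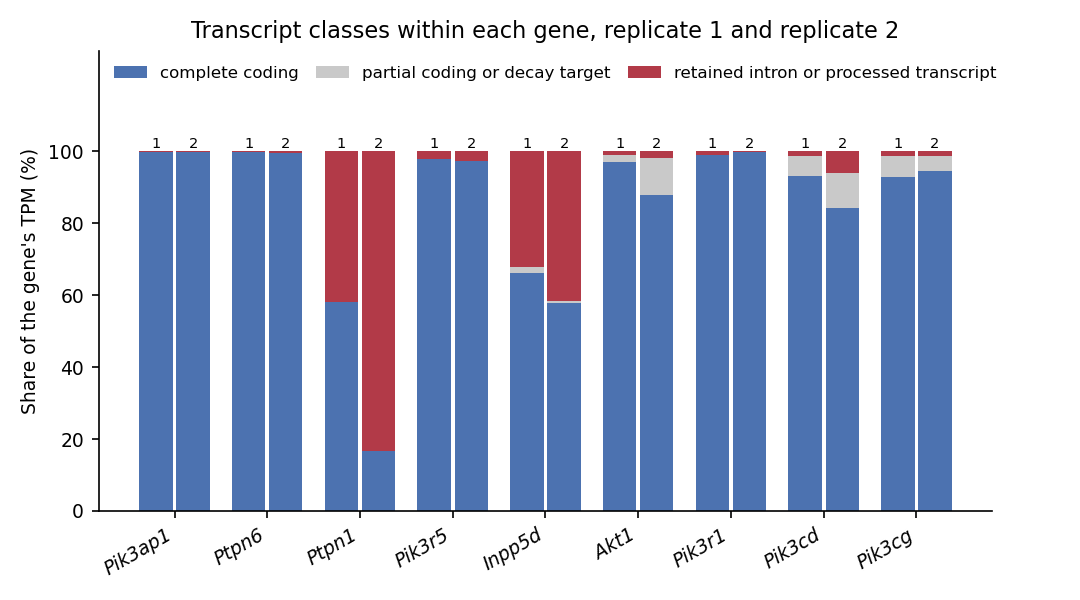
Share of each gene's TPM (%) in complete coding transcripts (blue), partial coding or decay-target transcripts (grey) and retained-intron or processed-transcript models (red), with replicate 1 on the left and replicate 2 on the right of each pair. The red share is 42.0% and 83.3% for Ptpn1 and 32.2% and 41.7% for Inpp5d, and at most 6.02% elsewhere.

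The spread between the libraries was set against that of all genes, as ratios of expected counts of replicate 1 to replicate 2 scaled to library size. Of 12552 genes that averaged 10 counts or more, 16.4% were at least 1.5-fold higher in replicate 1 and 13.8% at least 1.5-fold higher in replicate 2. Among the 9 members 1 was that much higher in replicate 1 and 2 were that much higher in replicate 2. Pik3cd, with 7667 reads in replicate 1 and 3013 in replicate 2, was 1.71-fold higher in replicate 1 (95% interval 1.64 to 1.79). Pik3r1 was 2.61-fold higher in replicate 2 (2.53 to 2.70), a ratio larger in size than that of 94.7% of genes. Pik3r5, with 19047 and 21426 reads, was 1.67-fold higher in replicate 2 (1.64 to 1.71).

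The other 6 members lay within 1.5-fold, with log2 ratios between -0.32 for Pik3cg and 0.24 for Inpp5d, against a median size of 0.36 over all genes. The intervals come from the exact binomial distribution, cover counting error only, and say nothing of differences between cultures. No p-value was computed, since both libraries belong to 1 group. By TPM of whole genes 4 members were at least 1.5-fold apart, with Ptpn1 added, and by TPM of complete coding transcripts 3 were. The share of all genes that far apart was not computed for these TPM ratios.

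**Figure D4:**
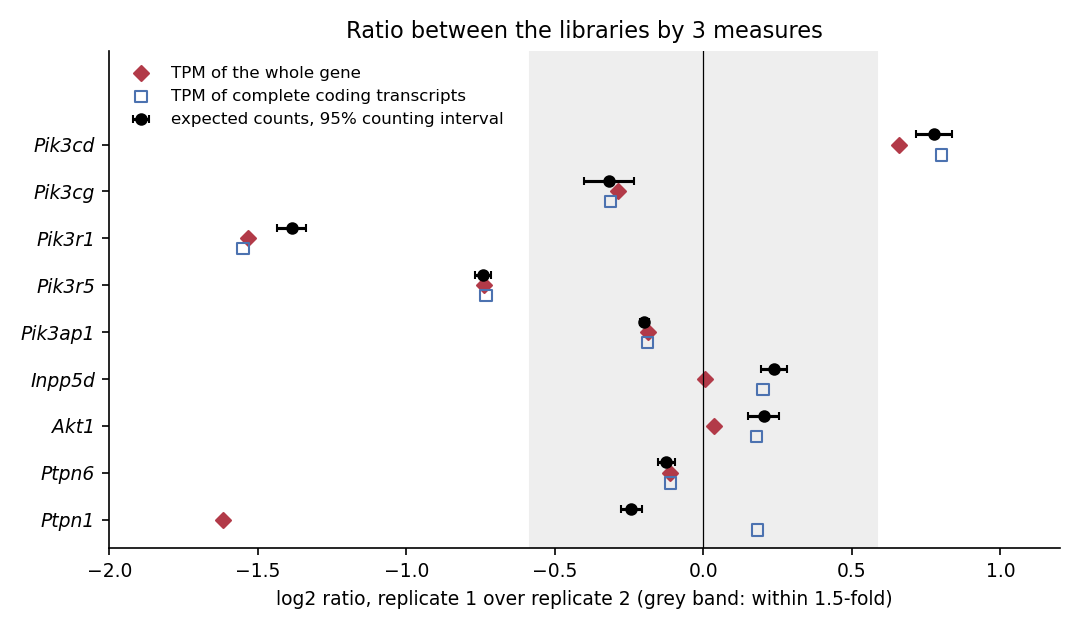
The log2 ratio of replicate 1 over replicate 2 for each gene from expected counts (black, with the 95% counting interval), whole-gene TPM (red diamonds) and TPM of complete coding transcripts (blue squares), with the grey band for ratios within 1.5-fold. Pik3cd lies to the right of the band and Pik3r1 and Pik3r5 to its left by all 3 measures, and Ptpn1 lies outside it by whole-gene TPM only.

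In the wider pathway, 63 of 99 genes on the 12 lists reached 10 TPM in both libraries, as did 27.2% of protein-coding genes. On the lists 15 genes were below 1 TPM in both, and without the 9 members the counts were 54 and 15 of 90. The lists were chosen with earlier results of these data known, and the share of all genes below 1 TPM was not computed. All 4 class I catalytic genes and 4 of 5 class I regulatory genes reached 10 TPM, against 2 of 5 class II and III genes, namely Pik3c3 at 12.8 ± 0.56 TPM and Pik3r4 at 12.5 ± 0.71 TPM. Pik3r4 was below 10 TPM in complete coding transcripts, at 7.36 TPM in replicate 1 and 8.43 TPM in replicate 2. It was also below 10 TPM in the second quantification, at 8.49 and 9.23 TPM. Pik3c2a, the next of the class II and III genes, was at 8.56 and 6.97 TPM. Of the 4 kinases that bind PIP3 through a pleckstrin domain, Btk was at 58.1 ± 14.7 TPM and Tec at 26.6 ± 5.93 TPM. Complete coding transcripts of Btk held 46.3 TPM in replicate 1 and 42.5 TPM in replicate 2. Of 9 AKT substrates 5 reached 10 TPM, led by Gsk3a at 61.1 ± 9.63 TPM, Bad at 51.1 and 24.7 TPM and Akt1s1 at 35.4 ± 7.79 TPM. Of 8 AKT inhibitors 5 did, led by the subunits of protein phosphatase 2A, Ppp2r1a at 205 ± 14.0 TPM, Ppp2ca at 57.2 ± 4.58 TPM and Ppp2cb at 46.9 ± 2.84 TPM. Complete coding transcripts of Ppp2r1a held 170 TPM in replicate 1 and 123 TPM in replicate 2.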

How the data were processed

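Each of the 2 libraries had a gene table and a transcript table from alignments and a second transcript table built from the read files without an alignment. Per the labels and the notes deposited with each sample, the genome build was mm10 and the annotation GENCODE M21; the programs behind the tables and their versions were not given in the sources used here. The authors deposited expected counts (estimated reads, which need not be whole), TPM, FPKM, the percent of a gene's TPM in each transcript, and a credibility interval of TPM, whose bounds are recorded as a score because its level is not stated. The gene table had 81881 rows, and 55536 annotated genes were used.

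Levels, means and SDs were taken from the deposited TPM. Ratios used expected counts, to which 0.5 reads were added as a prior, and library sizes scaled by TMM (edgeR 4.0.16, R 4.3.3) for genes with a mean count of at least 10, and the calculation was tested on simulated data. A complete coding transcript is one annotated as protein coding with both a start and a stop codon. Exon and UTR sequence came from the GENCODE M21 transcripts. Named genes are the members, the 3 genes with the highest mean TPM in each list, and transcripts with at least 10% of a gene's TPM in either library. Pdpk1, Pik3cb, Pik3r2, Pik3r3, Pecam1, Lilrb4a, Inpp4b, Inppl1, Ptpn12, Ptpn23, Mir155hg and Gm20531 and smaller transcripts of members were named after their values were seen. The members and lists were chosen with earlier results of these data known. The measures of complete coding transcripts and of counts per kilobase were added after seeing the data. Alternatives were FPKM, the second quantification, posterior means, rescaled TPM, other thresholds and filters, DESeq2 1.42.0 size factors, library totals and leaving out a library. With 2 libraries of 1 condition no likeness of pattern to other genes could be defined.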

Additional observations from a re-analysis of the deposited data

How the results depend on the processing

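No paired analysis was possible because both libraries belong to 1 group. All 9 members stayed at 10 or more under FPKM, the second quantification and complete coding transcripts, and at a limit of 20 TPM there were 8. A limit of 5 TPM and leaving out either replicate could not lower this count, since it requires 10 TPM in both libraries. The 3 members at least 1.5-fold apart were also 3 with DESeq2 1.42.0 size factors, library totals, other count filters, second quantification counts and complete coding transcripts, 4 by whole-gene TPM, and 1 at a limit of 2-fold. Each of their ratios kept its direction under the 7 alternatives. DESeq2 size factors, library totals and the count filters only rescale the same counts by a common factor, too small to turn these ratios. Other values entered only with second quantification counts, whole-gene TPM and TPM of complete coding transcripts. A share of all genes to set beside these counts was computed for the main ratios at 1.5-fold only. Ptpn1 alone changed direction, between -1.62 and 0.18 (log2 of replicate 1 over replicate 2) against -0.24 in the report; the share of its short noncoding models, given in the report, moved with it. All 9 members kept their place in the order under FPKM, posterior mean TPM and rescaling to nuclear protein-coding genes, 5 under the second quantification, under complete coding transcripts and under counts per kilobase of the longest coding transcript, and 7 with either replicate left out. As CPM per kilobase of the longest coding transcript, Ptpn1 averaged 75.9 and Inpp5d 47.1. The 63 pathway genes at 10 TPM were 72 at 5 TPM and 47 at 20 TPM, and the share of all genes at 5 and 20 TPM was not computed. Of 72 alternative levels 27 moved by more than the SD of 2 libraries, which is itself poorly known from 2 values. This tally does not measure how stable the levels are. A level with either replicate left out cannot move by this rule, and FPKM, rescaled TPM and counts per kilobase are on other scales than TPM. Depth did not limit detection of any member, the least covered of which, Pik3cg, had 2595 and 2176 reads.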
